A study of Mus musculus with 8 samples.

Results

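The mouse genes that encode collagen chains were examined in testis RNA. Members were all genes of the deposited expression table whose symbol had the form of a numbered collagen and a numbered alpha chain, such as Col1a1, which gave 44 genes of 57690 rows, each with a single row. They were divided into 11 fibrillar chains, 8 basement membrane chains (the 6 chains of type IV, Col15a1 and Col18a1) and 25 other chains. The libraries came from testes of C57BL/6 mice aged 8 weeks: 4 libraries after 2 intraperitoneal injections of 200 µg of an antibody against PD-L1, and 4 libraries after the same schedule and amount of an IgG2b isotype control. Testes were taken 7 days after treatment. PD-L1 binds PD-1 on T cells and restrains them, and antibodies to it are given to lift that restraint. The series asks what such an antibody does to testis transcripts. Whether each library is a different mouse is not stated in the labels, and the spread that the p-values rest on may therefore be technical.

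Collagens are extracellular proteins in which 3 chains wind into a triple helix built on a repeated glycine. Fibrillar collagens assemble into the tensile fibres of connective tissue, type IV collagen forms the sheet of basement membranes, and fibril-associated collagens with interrupted helices (FACIT) sit on or between fibrils. In the testis a basement membrane and a thin layer of contractile peritubular myoid cells enclose each seminiferous tubule, and Sertoli cells and myoid cells both contribute to that membrane. Fibrillar collagens lie in the tubule wall, the interstitium and the tunica.

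Values are in TPM, a share of a library's transcripts corrected for transcript length. Levels can thus be compared between genes, while read depth is unknown. Differences are on the scale of log2(TPM + 1), anti-PD-L1 minus IgG. On that scale the change of a low gene is compressed. Markers of elongating spermatids summed to 58602 to 66687 TPM in anti-PD-L1 libraries and to 61388 to 76747 TPM in IgG libraries, and 6 markers of epididymal epithelium summed to at most 0.46 TPM, so the libraries hold the labelled tissue. Of the 8 libraries, anti-PD-L1 replicate 1 and IgG replicate 4 stood apart: 54.3% and 54.7% of rows were above 0 TPM in them, against 50.4% to 51.8% in the other 6. In bulk RNA, fewer cells of a type and less RNA per cell cannot be told apart.

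After anti-PD-L1 no collagen chain passed the test. Of 29 chains with a mean of at least 1 TPM, 15 had higher values (58.3% of all 20343 genes tested did) and 14 had lower values. The median log2 difference was 0.00 for the chains and 0.03 for all genes tested. None of the 29 reached an adjusted p of 0.05 in limma with Benjamini-Hochberg adjustment, which 0% of all genes reached, and 1 chain, Col20a1, had an unadjusted p under 0.05 and was lower. That is 3.45% of the chains tested, where 5.23% of all genes were under that level (2.22% as lower), so the chains' share was not above the background. With TMM rescaling 9 of the 29 chains were higher and 20 lower, where 47.6% of all genes were higher, and 0 chains had an unadjusted p under 0.05, where 4.34% of all genes did. The smallest adjusted p of a chain was 0.884 (limma, Benjamini-Hochberg). No other tool was run.

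The precision differed widely between chains. Standard errors of the log2 difference ran from 0.08 to 0.80, with a median of 0.18 against 0.14 over all genes tested. For 25 of the 29 chains the 95% interval lay within 1 on the log2 scale in either direction. Col26a1, Col11a1, Col27a1 and Col9a3 were the exceptions. The intervals of Col26a1, Col11a1 and Col27a1 also hold larger changes, while that of Col9a3, from -0.97 to 1.00, only just reaches 1.

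**Figure D1:**
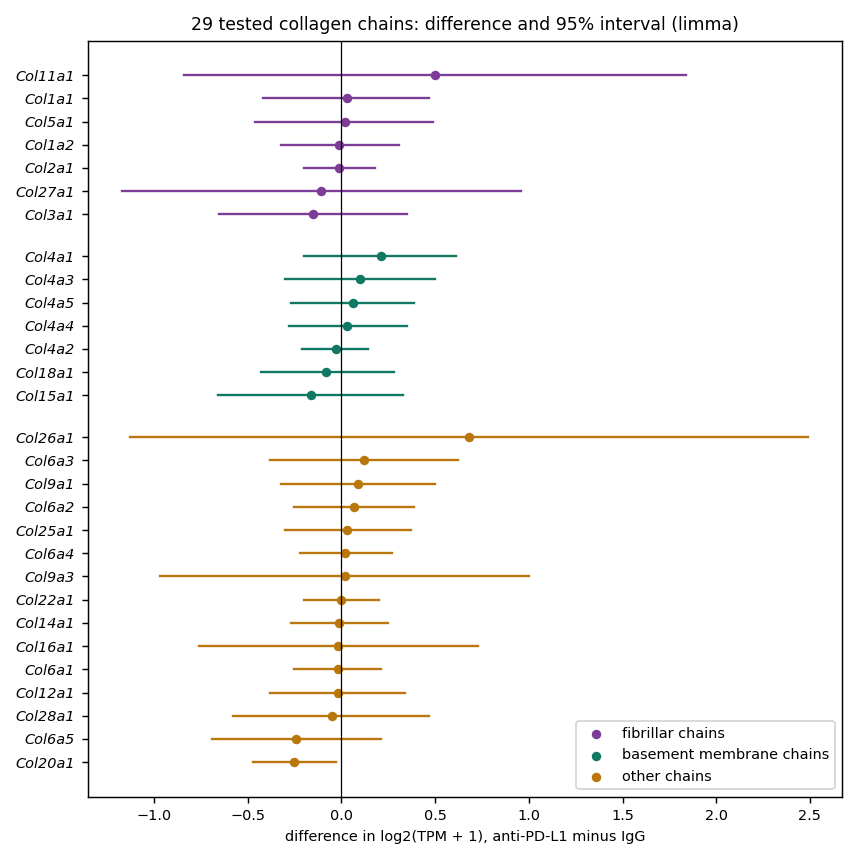
Difference in log2(TPM + 1), anti-PD-L1 minus IgG, for the 29 tested collagen chains, with points for the limma estimate, lines for its 95% confidence interval and colours for the 3 groups of chains. The interval of Col20a1, from -0.47 to -0.03, does not reach 0, while those of the other 28 chains do, and the intervals of Col26a1 and Col11a1 are the widest.

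Collagen RNA of these libraries was mostly FACIT RNA, and most of that came from Col22a1 and Col20a1. The 44 chains together summed to 537, 459, 457 and 421 TPM in anti-PD-L1 libraries, against 424, 483, 471 and 537 TPM in IgG libraries. The other chains held on average 76.7% of that sum in anti-PD-L1 libraries and 77.4% in IgG libraries, and the 9 FACIT chains among them 67.6% and 69.2%. FACIT chains summed to means of 317 and 331 TPM in the same order of groups. Of these, Col22a1 made up 206 and 206 TPM and Col20a1 70.2 and 84.4 TPM. Fibrillar chains held 12.0% and 11.6%, and basement membrane chains 11.3% and 10.9%. Each of these sums overlapped between the groups.

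**Figure D2:**
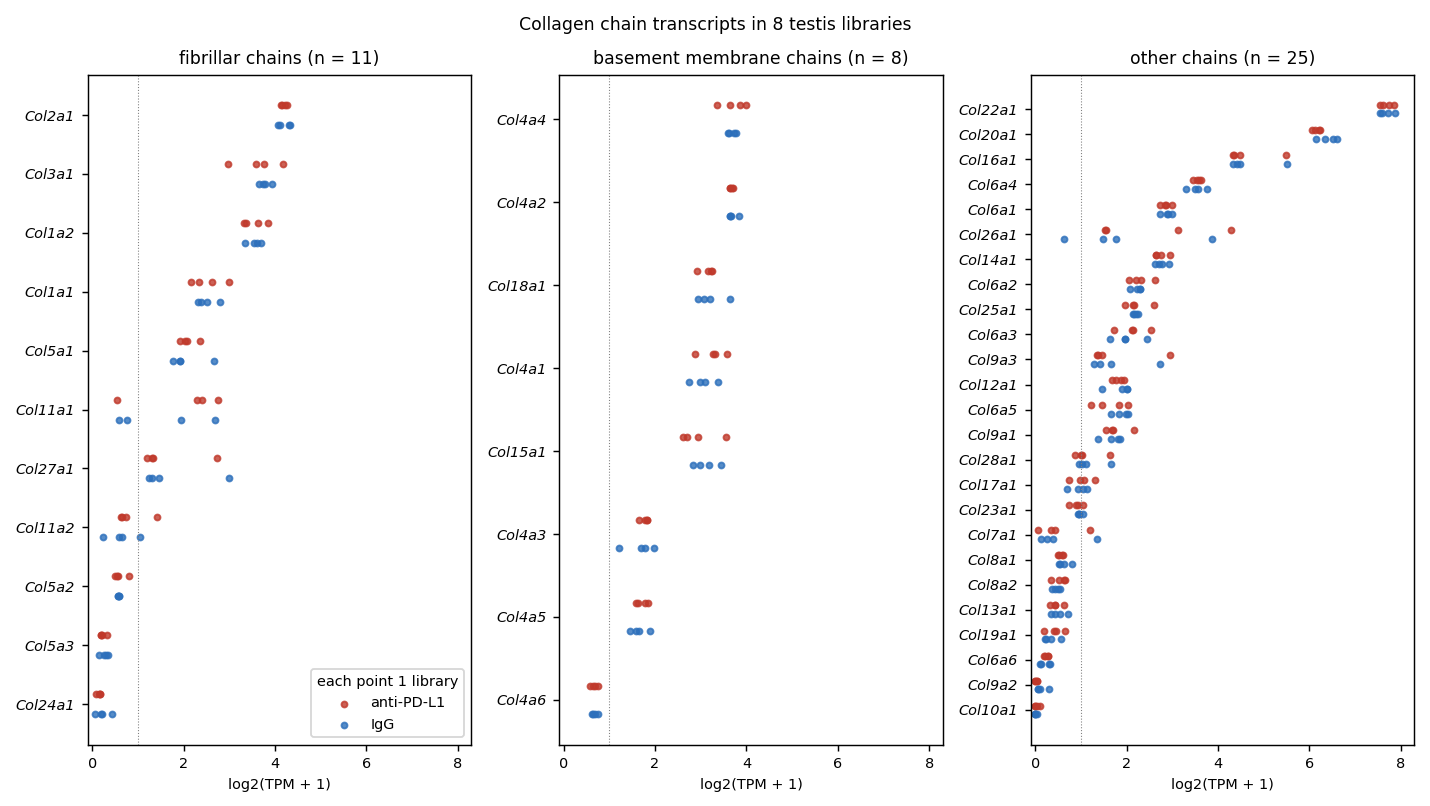
Level of each of the 44 collagen chains as log2(TPM + 1) in 4 anti-PD-L1 and 4 IgG libraries, each point a library, with chains in order of their mean and a dotted line at 1 TPM. Col22a1 and Col20a1 lie above all fibrillar and basement membrane chains in every library, and the groups overlap in every chain but Col9a2.

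Fibrillar chains summed to 57.6, 51.9, 65.7 and 48.2 TPM in anti-PD-L1 libraries, against 47.1, 57.2, 59.7 and 58.6 TPM in IgG libraries. The means were 55.9 ± 7.61 TPM and 55.6 ± 5.79 TPM (SD, n = 4 each), a log2 ratio of 0.01. Of 7 tested fibrillar chains 3 were higher and 4 lower. Their median log2 difference was -0.01, and 0 had an unadjusted p under 0.05 in limma. Basement membrane chains summed to 57.7, 51.2, 47.8 and 54.0 TPM after anti-PD-L1, against 46.3, 52.9, 50.3 and 59.8 TPM after IgG. Their means were 52.7 ± 4.21 TPM and 52.3 ± 5.67 TPM (SD, n = 4 each), also a log2 ratio of 0.01, and 4 of 7 tested chains were higher and 3 lower (median log2 difference 0.03). Other chains summed to 422, 355, 343 and 319 TPM after anti-PD-L1, against 330.3, 373, 361 and 419 TPM after IgG, a log2 ratio of -0.04, with 8 of 15 tested chains higher, 7 lower and a median of 0.00. For basement membrane and for other chains the highest library of each treatment was a library that stands apart. Without both of these libraries the log2 ratios were 0.02 for fibrillar, 0.03 for basement membrane and -0.06 for other chains.

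**Figure D3:**
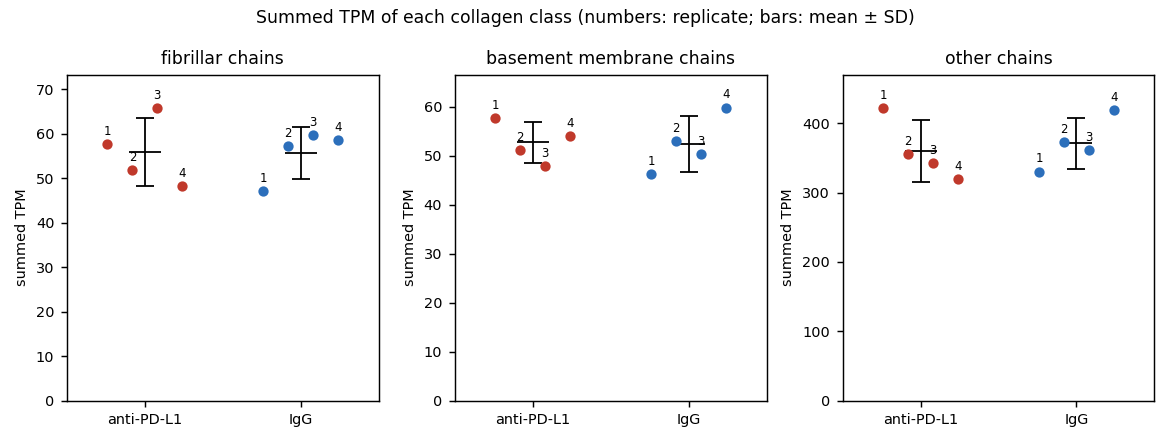
Summed TPM of the fibrillar, basement membrane and other collagen chains in each library (points, with the replicate number), with the group mean and SD as bars. Anti-PD-L1 and IgG means differ by less than the SD in each panel, and in the panel of other chains anti-PD-L1 replicate 1 and IgG replicate 4 lie at the top of their groups, at 422 and 419 TPM.

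Among fibrillar chains the most abundant was Col2a1 (mm10 chromosome 15, 97975602 to 98004695), the chain of type II collagen best known from cartilage. It was at 16.7, 16.5, 18.2 and 17.6 TPM in anti-PD-L1 libraries, against 15.6, 18.8, 19.1 and 16.3 TPM in IgG libraries. The anti-PD-L1 values lay inside the IgG range, and the log2 difference was -0.01 with a 95% interval from -0.20 to 0.18. Col2a1 was thus above Col1a1, the alpha-1 chain of type I collagen and of common connective tissue, in all 8 libraries.

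Type I and type III chains, the main fibril formers of interstitial tissue, shared their highest and their lowest library. Col1a1 (chromosome 11, 94936224 to 94953042) was at 4.06, 5.19, 6.94 and 3.46 TPM after anti-PD-L1, against 4.21, 4.66, 5.98 and 3.97 TPM after IgG. Its partner in the type I trimer, Col1a2 (chromosome 6, 4504814 to 4541544), was at 9.26, 11.4, 13.4 and 8.98 TPM after anti-PD-L1, against 9.08, 10.7, 11.9 and 11.2 TPM after IgG. Col3a1 (chromosome 1, 45311538 to 45349706), the chain of type III homotrimers, was at 11.01, 12.6, 17.02 and 6.88 TPM after anti-PD-L1, against 12.8, 14.2, 11.6 and 12.4 TPM after IgG. In each of the 3 genes the highest value of all 8 libraries was in anti-PD-L1 replicate 3 and the lowest in anti-PD-L1 replicate 4, so the anti-PD-L1 libraries spread more widely than the IgG libraries. The log2 differences were 0.03 (95% interval -0.42 to 0.47) for Col1a1, -0.01 (-0.32 to 0.31) for Col1a2 and -0.15 (-0.65 to 0.35) for Col3a1. Without anti-PD-L1 replicate 4 the difference of Col3a1 was 0.07.

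The type I protein holds more alpha-1 than alpha-2 chains, but in RNA per length Col1a2 was above Col1a1 in every library. The ratio of Col1a2 to Col1a1 was 2.25 ± 0.272 in anti-PD-L1 libraries and 2.32 ± 0.363 in IgG libraries (SD, n = 4 each), with ranges of 1.94 to 2.60 and 1.99 to 2.83. The ratio of Col3a1 to Col1a1 was 2.40 ± 0.300 and 2.78 ± 0.566 in the same order of groups. Neither ratio separated the treatments.

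Col5a1 (chromosome 2, 27886425 to 28039514), a chain of the type V collagen that starts fibrils and limits their width, was at 4.09, 3.23, 3.07 and 2.76 TPM after anti-PD-L1, against 2.40, 2.80, 2.81 and 5.36 TPM after IgG. The highest value of each group was in a library that stands apart. Its log2 difference was 0.02 (95% interval -0.46 to 0.49), or 0.13 (-0.14 to 0.41) without both of these libraries. Col11a1 (chromosome 3, 114030540 to 114220718), a minor fibrillar chain of cartilage fibrils, varied widely without following those libraries. It was at 4.26, 0.45, 3.92 and 5.77 TPM after anti-PD-L1, against 0.70, 2.86, 5.43 and 0.50 TPM after IgG. Both groups held high and low libraries, and the log2 difference of 0.50 had a 95% interval from -0.84 to 1.84. Without anti-PD-L1 replicate 1 and IgG replicate 4 it was 0.06.

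Of the basement membrane chains, Col4a1 had the largest difference by estimate and Col4a2 was the steadiest. They encode the 2 chains of the type IV network found in most basement membranes. Their genes lie head to head on mm10 chromosome 8, Col4a1 from 11198423 to 11312826 on the minus strand and Col4a2 from 11312805 to 11449287 on the plus strand, and their first exons share 22 bases. The windows around their start sites, 250 bases before and 50 after, are shown because the pair is transcribed from 1 stretch of DNA in opposite directions while its values differed, with those of Col20a1 and Col16a1 beside them for the chains that the later results turn on. All 4 are from RefSeq (GRCm38.p6), written 5′ to 3′ on the strand of the gene. Capitals mark each CCAAT or GGGCGG on either strand, the letters of the CCAAT box and of the GC box. The Col4a1 window is chr8:11312777-11313076 on the minus strand, the Col4a2 window chr8:11312555-11312854 on the plus strand, the Col20a1 window chr2:180986285-180986584 on the plus strand and the Col16a1 window chr4:130047590-130047889 on the plus strand.
Col4a1: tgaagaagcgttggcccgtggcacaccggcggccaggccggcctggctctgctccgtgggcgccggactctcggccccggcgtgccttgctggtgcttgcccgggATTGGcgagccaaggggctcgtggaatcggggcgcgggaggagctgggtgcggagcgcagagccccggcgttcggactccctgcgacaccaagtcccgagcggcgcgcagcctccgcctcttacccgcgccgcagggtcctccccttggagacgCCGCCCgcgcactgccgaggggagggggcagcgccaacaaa
Col4a2: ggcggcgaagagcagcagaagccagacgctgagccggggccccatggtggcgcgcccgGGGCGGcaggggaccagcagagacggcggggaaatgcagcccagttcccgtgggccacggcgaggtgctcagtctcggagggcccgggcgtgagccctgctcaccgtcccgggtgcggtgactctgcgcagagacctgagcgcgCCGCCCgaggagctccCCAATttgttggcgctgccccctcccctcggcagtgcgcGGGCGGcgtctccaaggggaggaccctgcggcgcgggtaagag
Col20a1: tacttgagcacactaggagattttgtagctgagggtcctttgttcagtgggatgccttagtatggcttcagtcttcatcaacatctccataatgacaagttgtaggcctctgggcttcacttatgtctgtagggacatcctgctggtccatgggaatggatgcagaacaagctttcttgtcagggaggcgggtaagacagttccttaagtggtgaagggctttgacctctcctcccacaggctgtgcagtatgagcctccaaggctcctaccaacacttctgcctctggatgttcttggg
Col16a1: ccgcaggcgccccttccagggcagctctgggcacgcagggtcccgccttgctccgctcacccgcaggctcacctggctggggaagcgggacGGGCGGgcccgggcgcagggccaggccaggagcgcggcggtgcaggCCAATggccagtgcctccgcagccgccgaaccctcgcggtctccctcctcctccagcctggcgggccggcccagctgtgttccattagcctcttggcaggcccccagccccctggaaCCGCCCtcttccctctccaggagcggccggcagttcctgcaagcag

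The Col4a1 and Col4a2 windows share 78 bases, read in opposite directions. Col4a1 held 1 CCAAT and 1 GGGCGG, Col4a2 1 CCAAT and 3 GGGCGG, Col16a1 1 and 2, and Col20a1 neither. The GGGCGG of Col4a1 lies in the shared bases and is also 1 of the 3 counted for Col4a2. TATAAA on either strand was in none of these 4. Windows of 35 of the 44 chains were matched, in 38 windows. CCAAT was in 34.2% of the collagen windows and 37.4% of all 32851 windows, GGGCGG in 60.5% and 35.7%, and TATAAA in 13.2% and 13.6%. The median GC content was 59.9% in collagen windows and 52.7% in all windows; it was 74.0% for Col4a1, 73.7% for Col4a2, 74.3% for Col16a1 and 50% for Col20a1. These matches describe letters and say nothing of a factor.

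Col4a1 was at 6.35, 8.57, 8.91 and 10.97 TPM in anti-PD-L1 libraries, against 5.70, 7.59, 6.86 and 9.44 TPM in IgG libraries. The groups overlapped, and the log2 difference of 0.21 (SE 0.18, 95% interval -0.20 to 0.61) had an unadjusted p of 0.281. Col4a2 was at 11.4, 11.5, 12.0 and 11.8 TPM after anti-PD-L1, against 11.6, 11.5, 13.3 and 11.5 TPM after IgG, a log2 difference of -0.03 (95% interval -0.21 to 0.14). Its coefficient of variation over the 8 libraries was 5.49%, against 21.8% for Col4a1. The ratio of Col4a2 to Col4a1 was 1.79, 1.34, 1.35 and 1.07 after anti-PD-L1, against 2.04, 1.51, 1.95 and 1.22 after IgG, so the pair did not keep 1 ratio between libraries and the groups overlapped.

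Without anti-PD-L1 replicate 1 and IgG replicate 4, Col4a1 averaged 9.48 TPM in 3 anti-PD-L1 libraries and 6.72 TPM in 3 IgG libraries, a log2 difference of 0.44 (95% interval 0.11 to 0.78) with an unadjusted p of 0.0177 (adjusted p 0.399, limma with Benjamini-Hochberg adjustment). The 3 and 3 libraries did not overlap, which held for 16.1% of all genes tested in those libraries. Endothelial cells make a basement membrane of their own. With all 8 libraries, 1 of 7 tested endothelial markers was higher and 6 were lower, where 58.3% of all genes tested were higher, and none passed. The list summed to 18.7 to 21.8 TPM in anti-PD-L1 libraries and 21.8 to 24.3 TPM in IgG libraries. Its largest part was Vwf, at means of 8.63 and 10.6 TPM. The part of these cells in the value of Col4a1 was not tested.

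The remaining type IV chains form the networks of specialised membranes. Col4a4 (chromosome 1, 82448423 to 82586849) was at 15.0, 11.4, 9.20 and 13.4 TPM after anti-PD-L1, against 12.2, 12.8, 11.1 and 11.2 TPM after IgG, a log2 difference of 0.03 (95% interval -0.28 to 0.35). It was as abundant as Col4a2, while Col4a3, its head-to-head neighbour with 71 bases between the start sites, was far lower, at 2.41 ± 0.183 TPM and 2.23 ± 0.678 TPM in anti-PD-L1 and IgG libraries (SD, n = 4 each). The ratio of Col4a4 to Col4a3 ran from 3.65 to 6.28 after anti-PD-L1 and from 3.81 to 9.27 after IgG. Col4a5 was near Col4a3, at 2.27 ± 0.284 and 2.15 ± 0.417 TPM, and Col4a6, its neighbour on chromosome X with 1308 bases between them, was below the filter at 0.583 ± 0.0793 and 0.598 ± 0.0624 TPM. The ratio of Col4a5 to Col4a6 was 3.91 ± 0.170 after anti-PD-L1 and 3.57 ± 0.383 after IgG, with overlapping libraries. In each of the 3 head-to-head pairs the same partner was the higher in every library.

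Col18a1 (chromosome 10, 77052178 to 77166548) and Col15a1 (chromosome 4, 47208161 to 47313167) encode the multiplexins, collagens with sugar side chains in the basement membrane zone whose C-terminal ends yield endostatin and its relative. Col18a1 was at 8.55, 8.27, 6.6 and 7.89 TPM after anti-PD-L1, against 6.71, 8.14, 7.39 and 11.5 TPM after IgG, a log2 difference of -0.08 (95% interval -0.43 to 0.28). Col15a1 was at 10.6, 6.62, 5.48 and 5.13 TPM after anti-PD-L1, against 6.10, 8.01, 6.92 and 9.87 TPM after IgG, a log2 difference of -0.16 (-0.66 to 0.33). In both genes anti-PD-L1 replicate 1 and IgG replicate 4 were the highest of the 8 libraries. Without these the differences were 0.03 (-0.26 to 0.32) and -0.25 (-0.58 to 0.08).

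Col22a1 (chromosome 15, 71795795 to 72034227), a FACIT chain known from tissue junctions such as that of muscle and tendon, was the most abundant collagen transcript. It was at 229, 214, 195 and 187 TPM in anti-PD-L1 libraries, against 187, 210, 193 and 235 TPM in IgG libraries. The means were 206 ± 18.8 TPM and 206 ± 21.7 TPM (SD, n = 4 each), and the log2 difference was 0.003 with a 95% interval from -0.20 to 0.20. Both libraries that stand apart were above the other 6, and without them the difference was 0.02 (-0.15 to 0.18). Col22a1 made up 42.7% to 46.6% of collagen TPM in anti-PD-L1 libraries and 41.0% to 44.1% in IgG libraries, and ranked 916 of all rows of the table by mean TPM. Without it the other 43 chains summed to 233 to 308 TPM after anti-PD-L1 and to 237 to 302 TPM after IgG.

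Col20a1 (chromosome 2, 180986535 to 181018363), a further FACIT chain, was second in abundance and had the smallest unadjusted p of the 29 chains. It was at 73.9, 72.6, 68.7 and 65.9 TPM in anti-PD-L1 libraries, against 80.4, 90.4, 96.9 and 70.1 TPM in IgG libraries. Of the IgG libraries 3 lay above all 4 anti-PD-L1 libraries, and IgG replicate 4 lay among them. The means were 70.2 ± 3.65 TPM and 84.4 ± 11.7 TPM (SD, n = 4 each), a log2 difference of -0.25 (SE 0.10, 95% interval -0.47 to -0.03). The unadjusted p was 0.029 and the adjusted p 0.884 by limma with Benjamini-Hochberg adjustment, so Col20a1 did not pass.

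Without anti-PD-L1 replicate 1 and IgG replicate 4, Col20a1 averaged 69.0 TPM in 3 anti-PD-L1 libraries and 89.2 TPM in 3 IgG libraries. The log2 difference was then -0.36 (95% interval -0.56 to -0.17) with an unadjusted p of 0.0035 (adjusted p 0.323, limma with Benjamini-Hochberg adjustment). In these 6 libraries 3 of the 29 chains (10.3%), Col20a1, Col4a1 and Col6a5, had an unadjusted p under 0.05, where 9.88% of all genes did (6.57% as higher, as Col4a1 was, and 3.3% as lower, as Col20a1 and Col6a5 were). Of the chains 0 passed the adjusted threshold, which 0.0393% of all genes passed. Groups without overlap occurred there for 2 of the 29 chains (6.9%), Col20a1 and Col4a1, where 16.1% of all genes had them. With all 8 libraries, the 8 elongating spermatid markers were all lower after anti-PD-L1, where 58.3% of all genes tested were higher. Tnp1 and Prm1 had an unadjusted p under 0.05 in limma, where 2.22% of all genes did as lower. None of the 8 spermatid markers passed. Their sum was 61894, 61415, 66687 and 58602 TPM after anti-PD-L1, against 70054, 72507, 76747 and 61388 TPM after IgG, so the order of the IgG libraries was the same as for Col20a1, while that of the anti-PD-L1 libraries was not; their part in the value of Col20a1 was not tested.

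**Figure D4:**
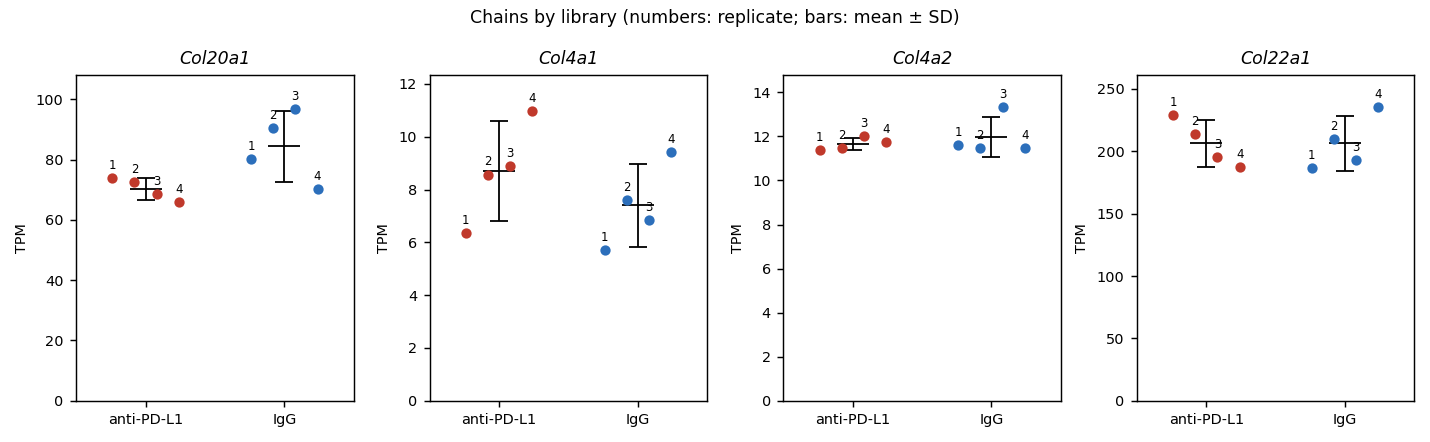
TPM of Col20a1, Col4a1, Col4a2 and Col22a1 in each library (points, with the replicate number), with group mean and SD as bars. IgG replicate 4 of Col20a1, at 70.1 TPM, lies among the anti-PD-L1 libraries while the other 3 IgG libraries lie above them, and Col4a2 varies least of the 4 chains.

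Type VI chains, which form beaded filaments around cells, summed to 26.8 ± 2.90 TPM in anti-PD-L1 libraries and 26.6 ± 1.39 TPM in IgG libraries (SD, n = 4 each). Their most abundant member was Col6a4 (chromosome 9, 105989454 to 106096783), at 9.96, 10.6, 11.4 and 11.1 TPM after anti-PD-L1, against 8.84, 12.5, 10.4 and 10.8 TPM after IgG, a log2 difference of 0.02 (95% interval -0.22 to 0.27). Col6a1 (chromosome 10, 76708792 to 76726168) was at 5.66, 6.32, 6.98 and 6.17 TPM after anti-PD-L1, against 6.53, 5.63, 6.43 and 6.91 TPM after IgG, a difference of -0.02 (-0.25 to 0.21). In both genes the groups overlapped. The trimer partners of Col6a1, Col6a2 and Col6a3, averaged 3.96 ± 0.836 and 3.46 ± 1.04 TPM after anti-PD-L1, against 3.69 ± 0.321 and 3.10 ± 0.984 TPM after IgG (SD, n = 4 each), with differences of 0.07 and 0.12. Col6a1, Col6a2 and Col6a3 were all highest in anti-PD-L1 replicate 3, the library in which Col1a1, Col1a2 and Col3a1 were highest too.

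Col6a5 (chromosome 9, 105856078 to 105960643), next to Col6a4 in the genome, was at 3.10, 1.77, 2.58 and 1.32 TPM after anti-PD-L1, against 2.95, 3.07, 2.57 and 2.18 TPM after IgG. Anti-PD-L1 libraries were both above and below the IgG libraries, and the log2 difference was -0.24 (95% interval -0.69 to 0.21), or -0.44 (-0.87 to -0.01) without both libraries that stand apart. The adjusted p was 0.999 with all libraries and 0.499 without these (limma, Benjamini-Hochberg). Col14a1 and Col12a1, FACIT chains on type I fibrils, were at 5.75 ± 0.712 and 2.54 ± 0.266 TPM after anti-PD-L1, against 5.78 ± 0.587 and 2.62 ± 0.600 TPM after IgG, with differences of -0.01 and -0.02. Col25a1, a transmembrane collagen, was at 3.71 ± 0.910 TPM and 3.55 ± 0.151 TPM (SD, n = 4 each), and Col9a1, a chain of the cartilage FACIT type IX, at 2.46 ± 0.689 and 2.23 ± 0.478 TPM, with differences of 0.03 and 0.09. Col9a1 was highest in both libraries that stand apart, and its difference without them was 0.02 (95% interval -0.33 to 0.38).

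Many collagen chains were high in both libraries that stand apart. Of the 44 chains 19 were higher in both anti-PD-L1 replicate 1 and IgG replicate 4 than in each of the other 6 libraries, and 0 were lower in both. Among tested chains these were 12 of 29, or 41.4%, where 20.8% of all genes tested had both of these libraries on top. Both were below the other 6 in 0 of the 29, which is near the 3.18% of all genes tested. Of the 29 chains 5 averaged at least 2 times as much in these libraries as in the other 6 (17.2%, where 6.23% of all genes did). One library of each treatment makes up the pair, so the pattern widened the spread within both groups.

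Col16a1 (chromosome 4, 130047840 to 130099283), a FACIT chain of connective tissues, was among the 5 chains with such a ratio. It was at 44.1, 21.4, 19.2 and 19.5 TPM in anti-PD-L1 libraries, against 19.1, 21.5, 20.2 and 44.8 TPM in IgG libraries. Anti-PD-L1 replicate 1 and IgG replicate 4 were thus near each other and far above the other 6, which lay between 19.1 and 21.5 TPM. The log2 difference between treatments was -0.02 with a 95% interval from -0.76 to 0.73, and without both libraries it was -0.02 with an interval from -0.20 to 0.17.

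Col27a1, a fibrillar chain of cartilage, was at 5.68, 1.28, 1.48 and 1.52 TPM after anti-PD-L1, against 1.36, 1.77, 1.47 and 6.92 TPM after IgG. Col9a3, a type IX chain, was at 6.75, 1.55, 1.61 and 1.77 TPM after anti-PD-L1, against 1.43, 1.68, 2.15 and 5.62 TPM after IgG. Both repeat the split of Col16a1, with the mean of the libraries that stand apart at 4.26 and 3.64 times that of the other 6. Exons of Col9a3 share 234 bases, 6.07% of their length, with Tcfl5 on the opposite strand, which was at a mean of 224 TPM, and strand use in the counting is not given in the sources used here, so the value of Col9a3 is uncertain. The treatment differences were -0.11 (95% interval -1.17 to 0.96) for Col27a1 and 0.02 (-0.97 to 1.00) for Col9a3, and without both libraries -0.06 (-0.35 to 0.22) and -0.05 (-0.37 to 0.27).

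Col26a1 (chromosome 5, 136741759 to 136883209), a collagen first described in testis and ovary, had the largest estimate of any tested chain and the widest interval. It was at 18.4, 1.90, 7.75 and 1.91 TPM after anti-PD-L1, against 0.54, 2.41, 1.81 and 13.6 TPM after IgG. High libraries occurred in both groups, the libraries that stand apart among them, and anti-PD-L1 replicate 3 was also above the rest. The log2 difference was 0.68 with a 95% interval from -1.13 to 2.49, or 0.77 (-0.45 to 2.00) without both libraries. Col28a1, a collagen with von Willebrand type A domains, was at 2.12, 1.03, 0.83 and 0.99 TPM after anti-PD-L1, against 0.94, 1.04, 1.15 and 2.15 TPM after IgG, and its difference was -0.05 with all libraries and -0.07 without both.

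**Figure D5:**
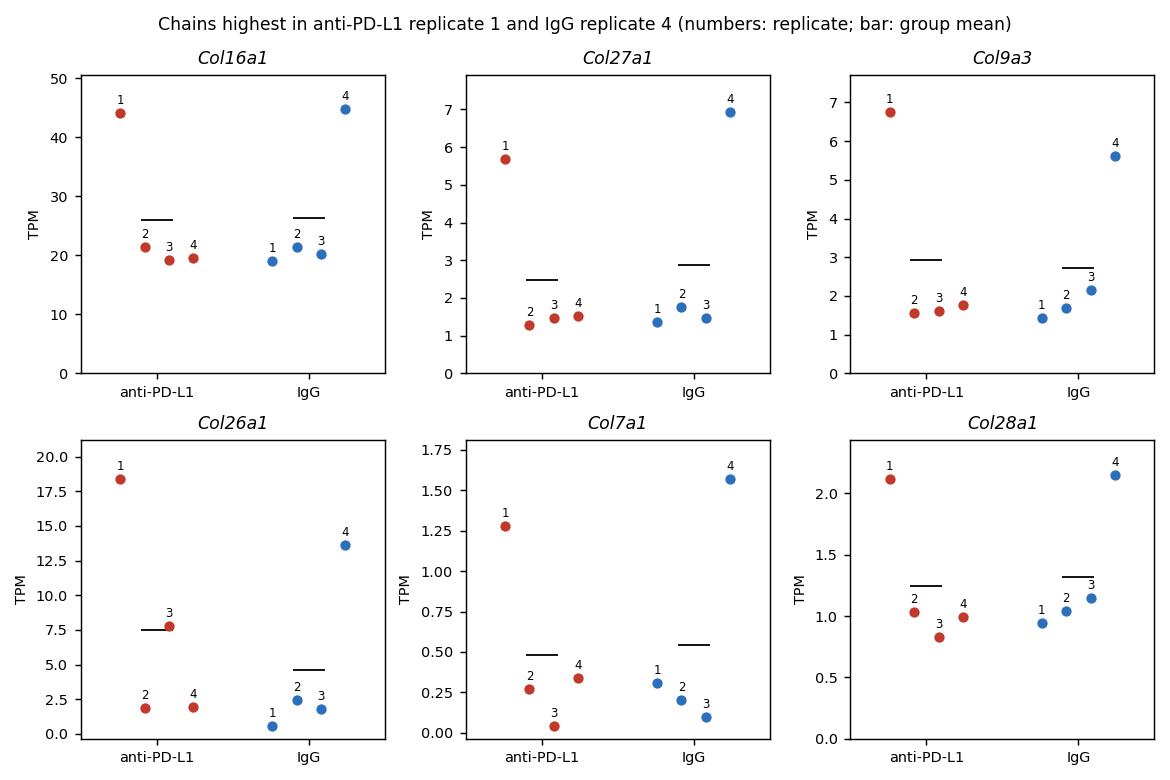
TPM of 6 chains in each library (points, with the replicate number), with the group mean as a bar; the chains were chosen for the figure after their values were seen. Anti-PD-L1 replicate 1 and IgG replicate 4 are the highest library of their group in every panel, for Col16a1 at 44.1 and 44.8 TPM against 19.1 to 21.5 TPM in the other 6 libraries.

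The 15 chains below a mean of 1 TPM were not tested in the main comparison. Fibrillar Col11a2, Col5a2, Col5a3 and Col24a1 were at group means from 0.103 to 0.860 TPM. Col5a2, the partner of Col5a1 in type V trimers, was at 0.525 ± 0.145 TPM after anti-PD-L1 and 0.480 ± 0.0115 TPM after IgG (SD, n = 4 each), so Col5a1 was on average 6.59 and 6.93 times as high in these groups. Col17a1, the hemidesmosome collagen of epithelia, was at 1.05 ± 0.327 TPM after anti-PD-L1 and 0.945 ± 0.240 TPM after IgG. Col23a1, a transmembrane collagen, was at 0.875 ± 0.156 TPM after anti-PD-L1 and 0.968 ± 0.0780 TPM after IgG.

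Col7a1, which forms the anchoring fibrils under epithelia, was at 1.28, 0.27, 0.04 and 0.34 TPM after anti-PD-L1, against 0.31, 0.20, 0.10 and 1.57 TPM after IgG, again with both libraries that stand apart on top. Col11a2 and Col19a1 had the same 2 libraries on top, at 2.73 and 2.17 times the mean of the other 6, and so did Col13a1 at 1.72 times. Col8a1 and Col8a2, which form hexagonal lattices, lay between 0.27 and 0.74 TPM, and Col6a6 between 0.07 and 0.26 TPM. Col9a2 and Col10a1, a cartilage FACIT chain and the marker of hypertrophic cartilage, were at the floor of the table. Col9a2 was the 1 chain of 44 whose groups did not overlap, at 0.03, 0.02, 0 and 0 TPM after anti-PD-L1 and 0.04, 0.23, 0.04 and 0.07 TPM after IgG, values too low to read a change from. Col9a2 was below the filter, and the groups overlapped in each tested chain. Of all genes tested 2.99% had groups without overlap, 1.76% as higher and 1.23% as lower. When all genes with a mean above 0 TPM were fitted, 22 of the 44 chains were higher, where 55.5% of all genes were, and 1 had an unadjusted p under 0.05, where 4.05% of all genes did.

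Genes that make, process, bind and break down collagen did not pass either. In 6 lists of 89 such genes 60 were tested, of which 37 were higher and 23 lower. That is 61.7% higher, near the 58.3% of all genes tested that were higher. Their median log2 difference was 0.02, against 0.03 for all genes, and 0 had an unadjusted p under 0.05 in limma, against 5.23% of all genes. Of 16 tested genes of procollagen folding and modification 12 were higher and 4 lower (median log2 difference 0.06). P3h1, a prolyl 3-hydroxylase of procollagen, was at 8.72 ± 1.65 TPM after anti-PD-L1 and 7.74 ± 0.109 TPM after IgG (SD, n = 4 each), a difference of 0.14 (95% interval -0.14 to 0.42). Colgalt1, which adds galactose to hydroxylysine, was at 17.9 ± 2.32 and 16.2 ± 2.10 TPM, a difference of 0.13 (-0.14 to 0.40).

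Only 4 of 13 genes of propeptide cleavage and crosslinking were tested, 1 higher and 3 lower, and the values of Adamts2, a procollagen N-proteinase, and Loxl1, a lysyl oxidase-like enzyme, differed by -0.04 (95% interval -0.32 to 0.24) and -0.03 (-0.28 to 0.21). Of 6 tested receptors and uptake genes 3 were higher and 3 lower, where 58.3% of all genes tested were higher. Itgb1, the beta-1 integrin chain shared by collagen-binding integrins, differed by 0.11 (-0.09 to 0.32), and Mrc2, an endocytic collagen receptor, by -0.16 (-0.87 to 0.55). Mrc2 was at 2.34, 0.61, 1.00 and 0.69 TPM after anti-PD-L1, against 0.57, 1.15, 1.35 and 2.58 TPM after IgG, so it too was highest in both libraries that stand apart, and without them it differed by -0.18.

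Of 6 tested genes of collagen breakdown and its inhibitors 4 were higher and 2 lower (median log2 difference 0.05). Ctsk, a collagen-cleaving cathepsin, differed by 0.23 (95% interval -0.20 to 0.65), and Timp2, a metalloproteinase inhibitor at 68.6 ± 9.87 TPM after anti-PD-L1 and 64.2 ± 2.47 TPM after IgG (SD, n = 4 each), by 0.09 (-0.13 to 0.30). Fibril-associated matrix genes were higher in 9 and lower in 3 of 12, with a median of 0.03, where 58.3% of all genes tested were higher with a median of 0.03. Prelp, a leucine-rich proteoglycan that links basement membranes to fibrils, had the smallest p of all 60 genes: it was at 3.31, 3.81, 3.18 and 3.20 TPM after anti-PD-L1, against 4.80, 4.19, 4.03 and 3.65 TPM after IgG. Only anti-PD-L1 replicate 2 reached into the IgG range, and the difference of -0.24 (-0.50 to 0.03) had an unadjusted p of 0.0722 (adjusted p 0.982, limma with Benjamini-Hochberg adjustment). Postn, the matrix protein periostin, differed by 0.17 (-0.11 to 0.45).

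Partners of type IV collagen in the basement membrane were all above the filter, with 8 of 16 higher, 8 lower and a median of -0.00. Of all genes tested 58.3% were higher, with a median of 0.03. Lama2, a laminin alpha chain, was at 14.0 ± 1.06 TPM after anti-PD-L1 and 12.5 ± 1.59 TPM after IgG (SD, n = 4 each), a difference of 0.15 (95% interval -0.08 to 0.39), and Lamb1, a laminin beta chain, differed by 0.15 (-0.12 to 0.42). The list summed to 113 to 133 TPM in anti-PD-L1 libraries and to 118 to 133 TPM in IgG libraries.

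Markers of the cells that could supply collagen RNA are given beside these values. Peritubular myoid markers, contractile genes such as Acta2, summed to 552 to 633 TPM in anti-PD-L1 libraries and 587 to 643 TPM in IgG libraries. Most of both sums was 1 gene, Actg2, at means of 394 and 415 TPM, so they say little of the other markers. Of the 8 markers 1 was higher and 7 lower, where 58.3% of all genes tested were higher. Interstitial fibroblast markers summed to 47.3 to 55.4 TPM and 50.6 to 56.9 TPM in the same order of groups, with 3 of 7 tested higher. Sertoli cell markers summed to 1009 to 1405 TPM and 1061 to 1211 TPM, with 5 of 8 higher. Most of both Sertoli sums was Clu, at means of 1052 and 989 TPM, so they too say little of the other markers. None of these 3 lists had a gene that passed or one with an unadjusted p under 0.05. Anti-PD-L1 replicate 3, with the highest Col1a1, Col1a2 and Col3a1, had the lowest fibroblast sum of the 8 libraries. The markers did not move together in it. Scara5, the most abundant of them, and Pdgfra were at their lowest there, at 16.37 and 4.08 TPM. Pi16 was at its highest, at 2.22 TPM, and the other markers were at neither end.

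Markers of mesothelium and tunica summed to 9.49 to 11.9 TPM after anti-PD-L1 and 9.18 to 10.3 TPM after IgG. Most of both sums was Krt8, at means of 7.65 and 7.7 TPM. Lrrn4 averaged 1.58 TPM over the 8 libraries. Msln, Upk3b, Krt19 and Krt18 averaged only 0.121, 0.136, 0.167 and 0.269 TPM, so the sums say little of this tissue. Macrophage markers summed to 77.3 to 99.9 TPM and 70.7 to 89.2 TPM in the same order of groups. In these lists 1 of 2 and 6 of 8 tested genes were higher. Adipocyte markers were lower in 5 of 5 tested genes. Of these, Adipoq had an unadjusted p under 0.05 in limma, where 2.22% of all genes did as lower. Adipocyte markers differed most between libraries: they summed to 7.12 to 12.2 TPM in anti-PD-L1 libraries and to 94.5, 9.93, 32.5 and 12.3 TPM in IgG replicates 1 to 4. IgG replicate 1, the library with the highest adipocyte sum, had the lowest fibrillar sum of the 8 libraries, at 47.1 TPM, while IgG replicate 3, second in the adipocyte sum, had the highest fibrillar sum of the IgG libraries, at 59.7 TPM. The Leydig cell markers summed to 2128 to 3433 TPM after anti-PD-L1 and 1203 to 1553 TPM after IgG. Most of both sums was Insl3, at 2210.3 ± 656 TPM and 874 ± 106 TPM (SD, n = 4 each). Each of the other Leydig markers overlapped between the groups. Of the 8 markers 3 were higher and 5 lower, where 58.3% of all genes tested were higher. Insl3 and Hsd3b1 had an unadjusted p under 0.05 in limma, where 5.23% of all genes did, and none of the 8 passed. The part of these cell types in the collagen values was not tested.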

How the data were processed

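RNA-seq libraries were made from total RNA of testis with the TruSeq kit, per the labels' protocols. The authors deposited 1 table of TPM per gene for the 8 libraries, with group means and gene lengths, per the file headers. Tools named in the submitters' processing notes are CASAVA 1.8, HISAT2, StringTie and RSEM, with the build mm10. Neither annotation release nor strand setting is given in the sources used here. Each library summed to 1000000 TPM, so depth is unknown and no intervals that need counts are given. Recomputed group means matched the deposited ones, and the deposited gene length column, another kind of value, was not used. No pair of libraries shared more than 2.48% of its values.

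Groups came from the sample titles. Values were taken as log2(TPM + 1), and the 20343 genes averaging 1 TPM or more were fitted in limma 3.58.1 (R 4.3.3) with an intensity trend and a group term; p-values are two-sided and adjusted by Benjamini-Hochberg over all of them at 0.05. Intervals are 95% from the moderated fit. The code was tested on simulated data. Gene spans and exon overlaps are from GENCODE M21 (GRCm38, the assembly of mm10), matched by identifier for all 44 chains. Summaries were made in Python 3.11.15.

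Members, gene lists and tests were chosen with earlier results of these data known. Named were the 5 most abundant chains of each class, the 5 chains with the smallest p, and the 2 genes with the smallest p of each pathway list; other chains are named to account for every member, and the subdivision of other chains was made after values were seen. Alternatives were TMM rescaling (trimming 30% of M values and 5% of A values), quantile normalization, a pseudocount of 0.1, a filter at 5 TPM or none, no trend, array quality weights, a replicate block, each library left out, and both libraries that stand apart left out. A covariate for those libraries was added after seeing the data.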

Additional observations from a re-analysis of the deposited data

Results flagged for a closer look

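In 96 groups of 4 libraries (each chain, each summed class and their total, by treatment), 13 held a library whose gap to the nearest other exceeded Dixon's 95% critical share of the group's range. About 1 in 20 such groups would be picked by chance, and the chains share libraries. Of the 13, 5 were anti-PD-L1 replicate 1 and 6 were IgG replicate 4. Anti-PD-L1 replicate 1 was far above its group for Col27a1 at 5.68 TPM, Col11a2 at 1.68 TPM, Col16a1 at 44.1 TPM, Col9a3 at 6.75 TPM and Col28a1 at 2.12 TPM. IgG replicate 4 was far above its group for Col5a1 at 5.36 TPM, Col27a1 at 6.92 TPM, Col16a1 at 44.8 TPM, Col26a1 at 13.6 TPM, Col7a1 at 1.57 TPM and Col10a1 at 0.02 TPM, where the other 3 IgG libraries were listed at 0. IgG replicate 3 was far above its group for Col4a2 at 13.3 TPM, and IgG replicate 2 for Col9a2 at 0.23 TPM.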

How the results depend on the processing

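No collagen chain and none of the 60 pathway genes passed under any alternative run in limma. Over all genes 0 passed in the main comparison, 1 with a pseudocount of 0.1, 5 with array quality weights, 0 to 15 with 1 library left out (the 15 on leaving out IgG replicate 4) and 8 when the 2 libraries that stand apart were dropped. The count of chains with higher values, 15 of 29, was 9 of 29 with TMM rescaling, 5 of 15 with a filter of 5 TPM, and 9 to 21 with 1 library left out, 9 without IgG replicate 1 and 21 without IgG replicate 4. The share of all genes with higher values moved too: it was 58.3% in the main comparison, 47.6% with TMM rescaling, 60.1% with the filter, 51.7% without IgG replicate 1 and 64.9% without IgG replicate 4; the cause was not tested. The deviations of same-numbered libraries from their group means correlated at -0.115, 0.1, 0.09 and -0.198 for replicates 1 to 4. Between libraries of unlike number the correlations ran from -0.182 to 0.359. The highest was that of anti-PD-L1 replicate 1 with IgG replicate 4, the libraries that stand apart. Whether equal numbers mark paired samples was not tested. The fit with the replicate block called 0 genes and 0 chains, 15 chains were higher, and it changed no call.

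Of 531 alternative values of the 30 named genes, 477 kept their sign and side of the threshold and 54, in 16 genes, changed sign. With quantile normalization Col6a4 was at -0.01, and with TMM rescaling Col5a1 was at -0.01, Col6a4 at -0.01, Col22a1 at -0.03, Col1a1 at -0.00 and Col4a4 at -0.00. With array quality weights Col1a1 was at -0.04, Col4a4 at -0.01, Col16a1 at 0.02, Col6a4 at -0.01, Col6a1 at 0.03 and Col11a1 at -0.17. Without both libraries that stand apart Col1a2 was at 0.08, Col4a4 at -0.09, Col18a1 at 0.03, Col6a1 at 0.06 and Loxl1 at 0.01. With 1 library left out the ranges were -0.06 to 0.03 for Col2a1, -0.33 to 0.07 for Col3a1, -0.11 to 0.07 for Col1a2, -0.12 to 0.15 for Col1a1, -0.08 to 0.22 for Col5a1, -0.07 to 0.15 for Col4a4, -0.05 to 0.01 for Col4a2, -0.16 to 0.07 for Col18a1, -0.29 to 0.26 for Col16a1, -0.05 to 0.07 for Col22a1, -0.05 to 0.10 for Col6a4, -0.07 to 0.02 for Col6a1, -0.10 to 0.04 for Adamts2, -0.08 to 0.02 for Loxl1 and -0.39 to 0.05 for Mrc2. Col20a1 was lower in all 18 alternatives, from -0.36 to -0.18, with a smallest adjusted p of 0.207 with array quality weights (limma, Benjamini-Hochberg). Depth is unknown.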
